A study of Mus musculus with 34 samples.

Results

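Cultures of the Rfx2 line fell into a set with high Pdgfra mRNA and a set with low Pdgfra mRNA, and the following describes what else differed between them. Pdgfra encodes the alpha receptor for platelet-derived growth factor. All 14 libraries of the line were used, out of 34 in the series. A library was placed in the high set when its Pdgfra level exceeded 40 CPM (reads of the gene relative to all reads of the library, scaled by the TMM method). The libraries were thus chosen by a measured level. That rule put 5 libraries in the high set, knockout replicates 1, 2 and 3 and wild-type replicates 1 and 2, and the other 9 in the low set.

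The series measured RNA by bulk sequencing in cultured mouse ependyma, a ventricle lining whose cells bear many motile cilia. The walls of the lateral ventricles were taken from C57BL/6 embryos at E18.5, the dissociated cells were grown to confluency, and serum was then withdrawn for 4 days to induce differentiation. The Rfx2 line comprised 6 Rfx2-/- and 8 wild-type (+/+) sibling samples, and the Rfx1 and Rfx3 lines, used below as libraries that the rule did not touch, held 4 and 6 knockouts with 4 and 6 wild types. The meaning of OF1 in the titles is unknown here, and the labels do not say whether a replicate is an embryo, a pool or a culture, so a p-value measures only the spread between these samples.

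Pdgfra is known as the receptor by which oligodendrocyte precursors receive the mitogen PDGF, and it also marks fibroblasts of the meninges. Oligodendrocyte precursors carry the transcription factors Olig2 and Sox10, leave the cell cycle as they become committed, and then switch on the lipid enzymes and membrane proteins of myelin. They arise in the same embryonic walls as the ependyma, and Olig2 is also present in part of the glial and progenitor population there.

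Total counts ran from 27.4 to 40.1 M in the 14 libraries, and a count of 0 allowed a level of up to 0.0757 to 0.111 CPM (3 counts, counting error only). Rfx2 mRNA itself lay at 43.2 to 55.1 CPM in the 6 knockouts and at 82.8 to 129 CPM in the 8 wild types, with no overlap. The labels do not state which part of the gene was deleted. Among knockouts it was lower in the 3 high libraries (43.2 to 47.2 CPM) than in the 3 low ones (49.2 to 55.1 CPM), while the wild types of the sets overlapped. Genes of the Y chromosome were expressed in 2 of the 5 high libraries and in 5 of the 9 low ones. Within each genotype the high libraries carried the lowest replicate numbers, and the labels do not say what a number stands for.

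The stretch around the transcription start (250 bases before it and 50 after, RefSeq, GRCm38.p6) is printed here for 4 genes of the lineage: Pdgfra, which defined the sets, Pcdh15, which had the largest difference among well-expressed genes, Tnr, and Olig2, which was expressed in both sets. Of 16 lineage genes named below, 11 matched the promoter table, with 13 promoters; Sox10, Bcas1, Gpr17, Myrf and Omg were not matched. The motifs searched on both strands were the E-box CAGCTG and the SOX core ACAAAG. A match is in capitals as it reads on the gene's strand (CTTTGT is the SOX core on the other strand).
Pdgfra chr5:75152001-75152300 (+): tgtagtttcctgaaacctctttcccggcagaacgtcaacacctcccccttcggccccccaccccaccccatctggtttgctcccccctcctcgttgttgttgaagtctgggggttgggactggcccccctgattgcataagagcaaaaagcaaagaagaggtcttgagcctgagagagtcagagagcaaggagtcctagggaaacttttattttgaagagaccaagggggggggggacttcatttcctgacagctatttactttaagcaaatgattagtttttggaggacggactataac
Pcdh15 chr10:73821617-73821916 (+): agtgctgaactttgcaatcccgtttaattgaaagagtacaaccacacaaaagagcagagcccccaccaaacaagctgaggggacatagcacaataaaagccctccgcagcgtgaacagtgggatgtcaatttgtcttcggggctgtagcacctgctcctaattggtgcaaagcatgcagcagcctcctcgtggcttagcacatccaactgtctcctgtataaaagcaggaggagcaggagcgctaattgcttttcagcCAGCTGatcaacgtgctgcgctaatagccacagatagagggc
Tnr chr1:159523519-159523818 (+): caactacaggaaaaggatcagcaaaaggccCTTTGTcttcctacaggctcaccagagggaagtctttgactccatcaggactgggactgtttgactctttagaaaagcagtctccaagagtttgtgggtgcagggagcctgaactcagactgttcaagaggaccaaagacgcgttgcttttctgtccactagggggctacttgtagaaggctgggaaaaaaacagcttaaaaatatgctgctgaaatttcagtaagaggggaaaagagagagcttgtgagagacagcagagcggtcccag
Olig2 chr16:91225300-91225599 (+): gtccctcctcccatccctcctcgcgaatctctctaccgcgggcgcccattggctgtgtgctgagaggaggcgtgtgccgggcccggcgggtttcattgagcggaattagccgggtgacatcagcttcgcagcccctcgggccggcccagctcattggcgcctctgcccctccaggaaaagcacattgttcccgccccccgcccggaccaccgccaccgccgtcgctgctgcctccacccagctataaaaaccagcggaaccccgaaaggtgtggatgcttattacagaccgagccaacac
The E-box was present in 1 of the 13 promoters, that of Pcdh15, or 7.69%, against 16.3% of all 32851 promoters of the same length. The SOX core was present in 3, or 23.1%, against 18.7% of all promoters, and 2 of those 3 are overlapping Mag promoters that share 1 match. These letters were absent from the windows of Pdgfra and Olig2.

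The values that chose the sets were 64.4, 100.3 and 95.8 CPM in knockout replicates 1 to 3 and 69.3 and 87.5 CPM in wild-type replicates 1 and 2. In the low set Pdgfra (ENSMUSG00000029231, chromosome 5, 75152292 to 75198215, GRCm38) lay at 5.40, 5.07 and 1.77 CPM in knockout replicates 4 to 6, and at 10.4, 2.77, 2.15, 3.85, 2.77 and 1.96 CPM in wild-type replicates 3 to 8. The lowest high library was thus at 64.4 CPM and the highest low library at 10.4 CPM, and none lay near 40. The high set held 3 of 6 knockouts and 2 of 8 wild types, shares that could not be told apart by Fisher's exact test (two-sided p = 0.58).

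**Figure D1:**
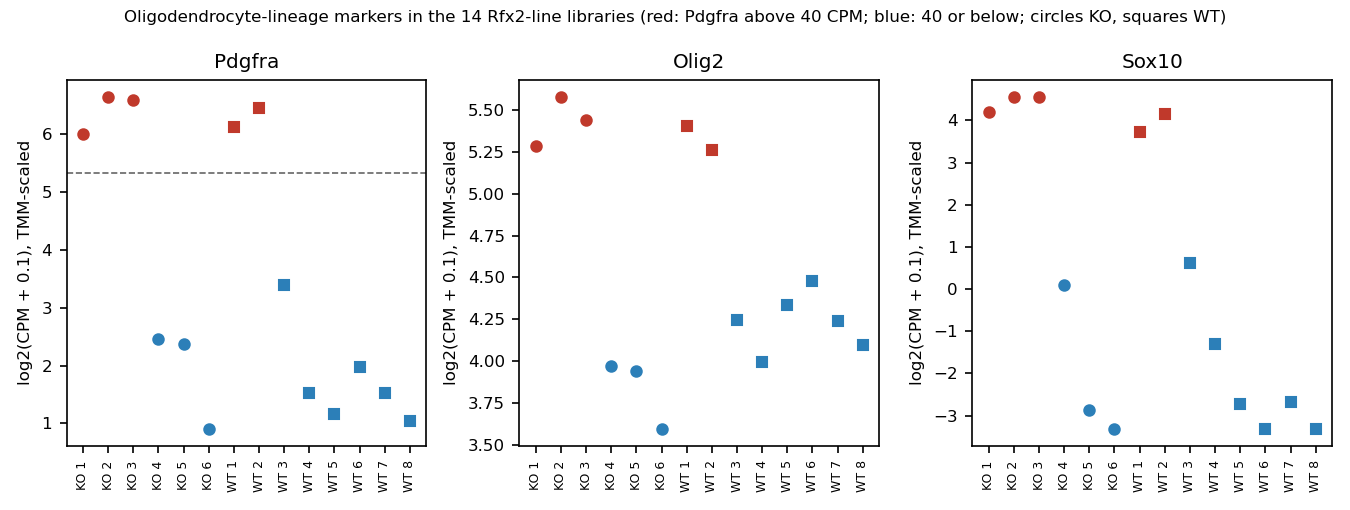
Levels of Pdgfra, Olig2 and Sox10 in each Rfx2-line library, as log2(CPM + 0.1), with knockouts as circles, wild types as squares and the high Pdgfra set in red. The dashed line marks 40 CPM, which chose the sets; the red points lie above the blue ones in all 3 panels, and wild-type replicate 3 is the highest blue point for Pdgfra and Sox10.

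Both other markers of the lineage were higher in every high library than in every low library. Sox10 (ENSMUSG00000033006, chromosome 15, 79154908 to 79165240), the transcription factor that keeps the lineage's identity and drives myelin genes, was at 18.4, 23.5 and 23.6 CPM in the high knockouts and at 13.2 and 17.6 CPM in the high wild types. In the low set it was at 0.963, 0.0367 and 0 CPM in knockouts and at 1.44, 0.304, 0.0506, 0, 0.0559 and 0 CPM in wild types. Sox10 was therefore near the detection limit in 6 of the 9 low cultures and above 10 CPM in all 5 high ones, a log2 difference of 5.84 (SE 0.62). Olig2 (ENSMUSG00000039830, chromosome 16, 91225457 to 91228677) behaved differently. It was at 38.3 to 47.8 CPM in the high set and still at 12 to 22.2 CPM in the low set, a log2 difference of 1.35 (SE 0.11). Of the 3 markers, Olig2 alone kept a level of over 10 CPM in every low culture.

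The difference between the sets is a description, since a level measured in these libraries made the sets, so no p is given for it. A gene was counted as separated when every high library lay on the same side of every low library within knockouts and within wild types. Among 13867 genes with a mean of at least 0.5 CPM, 841 were separated and higher in the high set (6.06%), and 553 were separated and lower (3.99%). With a difference of at least 2-fold as well, 162 were higher (1.17%) and 16 lower (0.115%). The 162 genes together made up 1656 to 2159 CPM in the high libraries and 486 to 718 CPM in the low ones. The contrast was thus lopsided: large differences were nearly all increases, while smaller ones ran both ways. Without wild-type replicate 1 the counts were 199 and 29, and without wild-type replicate 2 they were 197 and 34.

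**Figure D2:**
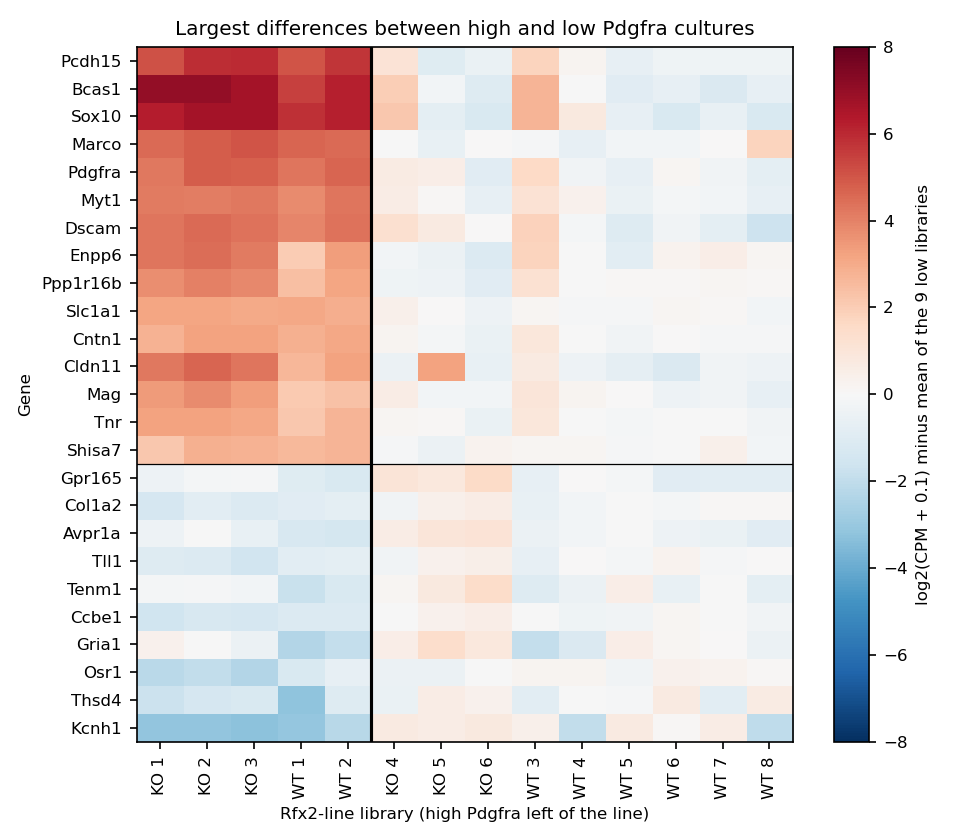
Each cell gives log2(CPM + 0.1) in a library minus the mean of the 9 low libraries, for the 15 highest and 10 lowest separated genes; columns are libraries, with the high set left of the vertical line. The upper genes are red in all 5 high libraries, wild-type replicate 3 is faintly red for most of them, and Kcnh1 is blue in the high libraries and in wild-type replicates 4 and 8.

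Of the 15 highest genes, 8 are on the lists of the oligodendrocyte lineage used below (precursors, committed cells and myelin), and the other 7 are on none of these. The 8 include Pdgfra, which made the sets. Pcdh15 (ENSMUSG00000052613, chromosome 10, 73099342 to 74649737), a protocadherin of the inner ear that is also a precursor marker, was at 6.15 to 12.3 CPM in the high set and at 0 to 0.577 CPM in the low set. Its log2 difference was 6.04 (SE 0.47), the largest among genes of at least 2 CPM on average. Bcas1 (ENSMUSG00000013523, chromosome 2, 170346991 to 170427845), a marker of newly formed oligodendrocytes, was at 37.8, 36.4 and 29.1 CPM in the high knockouts and at 12.3 and 21.0 CPM in the high wild types. It was at 0.028 to 1.76 CPM in the low cultures, a log2 difference of 5.96 (SE 0.57). All 3 high knockouts were above both high wild types for Bcas1, a point taken up with the genotypes.

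The next genes were Myt1, a zinc-finger transcription factor of the precursor stage (4.29, SE 0.28, all differences here in log2), Dscam, an adhesion molecule (4.23, SE 0.48), and Enpp6, a choline phosphodiesterase of premyelinating cells (3.69, SE 0.53). Ppp1r16b, a phosphatase subunit, differed by 3.59, Slc1a1, a glutamate transporter, by 3.15, and Cntn1, a contactin of axons and glia, by 3.05. Cldn11, the claudin of myelin tight junctions, differed by 3.0, Mag, an adhesion protein of the inner myelin membrane, by 2.99, Tnr, the matrix protein tenascin-R, by 2.81, and Shisa7, an auxiliary receptor subunit, by 2.77. Marco, a scavenger receptor of macrophages and not of this lineage, was at 4.64 to 6.84 CPM in the high set and at 0.0304 to 0.617 CPM in the low set (5.17, SE 0.41). It was the only well-known macrophage gene among the 15 highest.

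Cldn11 shows how far 1 low culture could stand from the rest. It was at 4.00 to 16.1 CPM in the high set, at 6.02 CPM in low knockout replicate 5, and at 0.188 to 0.993 CPM in the other 8 low libraries. It was separated within each genotype, but that low knockout lay above both high wild types. Knockout replicate 5 had no such level of Sox10 (0.0367 CPM) or Bcas1 (0.147 CPM). Knockout replicate 5 also held the highest Dcn level, 26.2 CPM, where the other 13 libraries had 0.138 to 14.5 CPM; Dcn is a proteoglycan of fibroblasts and meninges, whose arachnoid cells are also known to express Cldn11. The part of such cells in this value was not tested.

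Scaled by transcript length, the median level in the high set was greatest for Olig2 at 16.7 CPM per kb. Pdgfra followed at 8.73, Bcas1 at 7.71, Cldn11 at 6.43 and Sox10 at 6.03 CPM per kb. Tnr and Cntn1 had 4.47 and 4.13 CPM per kb, and Pcdh15, despite the largest ratio, only 0.431. In the low set Olig2 was at 6.72 CPM per kb and none of these other genes exceeded 0.502.

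Pearson's r over the 14 libraries, on log2 CPM, was used to find the genes with the pattern most like that of Pdgfra. They were Myt1 (0.992), Cntn1 (0.99), Tnr (0.981), Slc1a1 (0.977) and Bcas1 (0.977). These values describe a split of 5 against 9 libraries that share a depth range and a culture protocol, and Pdgfra chose the sets.

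Lists of marker genes showed how far the pattern spread within the lineage. Of 26 precursor genes kept by the filter, 17 were separated and higher, against 6.06% of all genes, and none was lower. In the table were 29, and 1 listed symbol, Lhfpl3, was not found. The median log2 difference was 0.66, against -0.008 over all genes. Pdgfra, which made the sets, is among the 17 and enters the list's median and sum. Zfp488, a Sox10 partner in oligodendrocyte differentiation, had the largest value in the list, 6.68. It was at 0.854 to 3.54 CPM in the high set and 0 to 0.0734 CPM in the low set. It thus passed the filter of 0.5 CPM through the high set alone. So did other members of the lineage lists. Sox10, Pcdh15, Bcas1, Ugt8a, Gjc3 and Omg had low-set medians of 0 to 0.182 CPM. Genes kept in this way could hardly be other than higher in the high set. The counts of separated genes in the 3 lineage lists are therefore not independent of the filter. Nkx2-2 differed by 1.73, Cspg4 (NG2, the precursor proteoglycan) by 1.04, and Olig1 by 0.76. Sox6 and C1ql1, both known from precursors, had differences of -0.05 and -0.49 and were not separated. Summed over the list, the high libraries had 2408 to 2598 CPM and the low ones 1663 to 1924 CPM.

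Of 20 genes of committed and newly formed oligodendrocytes kept, 7 were separated and higher, against 6.06% of all genes, with a median of 0.04. Those at least 2-fold higher were Bcas1, Ugt8a (4.29), Enpp6, Gpr17 (2.62) and Myrf (2.17). Ugt8a makes the galactolipids of myelin, Gpr17 is a receptor of the transient committed stage, and Myrf is the transcription factor that starts myelin gene expression. Most other members of the list differed little: Sirt2 by 0.01, Tcf7l2 by -0.14 and Bmp4 by -0.71.

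Among myelin genes 8 of 17 kept were separated and higher (25 were listed and found), against 6.06% of all genes, with a median of 0.63. Gjc3, a connexin of the lineage, differed by 5.81, Omg by 3.17, Pllp by 2.46 and Mbp by 2.15. Mbp, the main soluble myelin protein, was at 53.1, 62.0 and 49.5 CPM in the high knockouts, at 21.2 and 25 CPM in the high wild types and at 5.04 to 12.6 CPM in the low set. Cnp (0.0011) and Tspan2 (-0.17), which ciliated and other glial cells also express, were not separated. The summed myelin list overlapped, at 404 to 500.2 CPM in the high set and 275 to 459 CPM in the low set. Among knockouts alone it did not, at 406 to 472 CPM in high and 275 to 323 CPM in low cultures. In wild types it did, at 404 and 500.2 CPM in high and 346 to 459 CPM in low cultures. In bulk RNA, more cells of a type and more RNA per cell cannot be told apart, here or below.

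**Figure D3:**
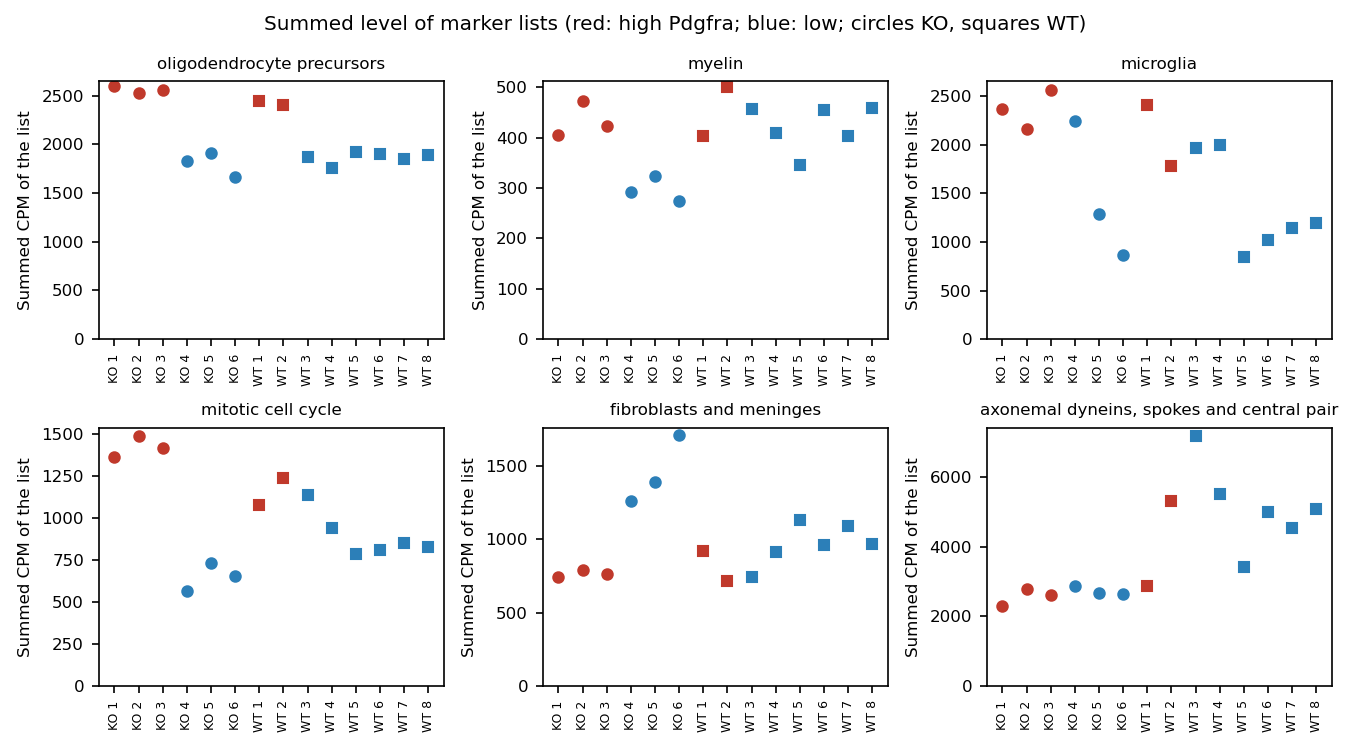
Summed CPM of 6 marker lists in each Rfx2-line library, with the high set in red, knockouts as circles and wild types as squares; each axis starts at 0. The high libraries lie above all low ones for the precursor list and overlap them for myelin, microglia, fibroblasts and the axoneme. Among knockouts alone, the high set lies above the low set for myelin and below it for fibroblasts, without overlap. For the mitotic list the high libraries lie above the low ones of their genotype except wild-type replicate 1, which is below wild-type replicate 3.

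The ligands and the other receptors of the PDGF pathway did not share the pattern. Of 7 genes kept, 1, Pdgfra itself, was separated, and the list's median was 0.0002. Pdgfrb, the receptor of pericytes, was at 97.3 to 168 CPM in the high set and 71.9 to 210 CPM in the low set. The ligand Pdgfb was at 49.1 to 56.7 and 44.8 to 61.8 CPM, and the ligand Pdgfa differed by 0.03 (SE 0.04).

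Markers of other cells were read beside these values. Fibroblast and meningeal genes, the other known source of Pdgfra, had a median of -0.41, with Col15a1 separated and higher and Col1a2, a fibrillar collagen, separated and lower among 13 kept. Col1a2 was at 34.5 to 52.3 CPM in the high set and at 58.6 to 134 CPM in the low set. The list summed to 714 to 924 CPM in the high set and 743 to 1712 CPM in the low set, which overlap. Among knockouts alone the sums did not overlap, at 745 to 789 CPM in high and 1265 to 1712 CPM in low cultures. In wild types they overlapped, at 714 and 924 CPM in high and 743 to 1131 CPM in low cultures. Most of the list's sum was Ogn, at 590 to 739 CPM in the high set and 602 to 1453 CPM in the low set. Col3a1 also overlapped, at 1.28 to 17.5 and 0.791 to 27.2 CPM. The part of fibroblasts in the Pdgfra level was not tested. Pericyte and endothelial genes had medians of -0.02 and -0.40 over 5 genes kept in each. Schwann cell and neural crest genes, another known site of Sox10, had 0 of 6 separated and higher and 1 lower (6.06% and 3.99% of all genes were).

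Microglia, the brain's resident macrophages, moved partly with the sets. Of 18 genes kept, 3 (Tmem119, C1qa and Ptprc) were separated and higher, against 6.06% of all genes, and none lower, with a median of 0.69. Cx3cr1, the fractalkine receptor of microglia, was at 215, 186 and 226 CPM in the high knockouts and at 214 and 153 CPM in the high wild types. It was at 163, 91.9 and 60.4 CPM in the low knockouts, and at 149.7 and 158 CPM in wild-type replicates 3 and 4 but 58.3 to 89.3 CPM in the other 4 low wild types. The list summed to 1784 to 2563 CPM in the high set and 843 to 2244 CPM in the low set, and 3 low cultures, knockout replicate 4 and wild-type replicates 3 and 4, exceeded wild-type replicate 2 of the high set. No defining marker of the list was at 0 in any library. With the summed microglia level as a further term, an alternative added after the data were seen, 158 genes were 2-fold higher and separated and 11 lower. Separation was judged on the levels themselves, without that term, so only the fold criterion could change these counts. The part of microglia in the other differences was not tested.

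Genes of the mitotic cycle were also higher in the high set. Of 20 kept, 11 were separated and none was lower, against 6.06% of all genes separated and higher, with a median of 0.82; no member reached 2-fold. Ccna2, the cyclin of S phase and G2, was at 66.9, 65.7 and 63.6 CPM in the high knockouts, 48.2 and 48.9 CPM in the high wild types, and 23.4 to 35.0 CPM in the low set. Mki67, the proliferation marker, was at 148 to 248 CPM in the high set and 93.3 to 129 CPM in the low set. Of 14 DNA replication genes, 5 were separated and higher, against the same 6.06%, with a median of 0.28. Without wild-type replicate 3, 18 of the 20 mitotic genes and 19 of the 26 precursor genes were separated and higher, against 7.18% of all genes.

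Neuronal genes were split. Dcx, a microtubule protein of migrating neuroblasts, was at 3.45 to 7.36 CPM in the high set and 0.363 to 2.10 CPM in the low set (2.45 on the log2 scale). Elavl3 and Elavl4, neuronal RNA-binding proteins, differed by 2.01 and 1.90. Dlx1 and Dlx2, the interneuron transcription factors, differed by -0.53 and -0.69 without separation. In all, 5 of 14 neuronal genes were separated and higher, against 6.06% of all genes. Of 17 astrocyte genes 3 were separated and higher (Slc6a11, Agt and Slc1a3), against the same 6.06%, with a median of 0.26. Gfap, the astrocyte filament, was at 4658 to 7434 CPM in the high set and 2569.6 to 5696 CPM in the low set, which overlap.

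Structural genes of cilia and ependyma were not separated. None of 39 genes of the axonemal dyneins, spokes and central pair was separated in either direction, with a median of -0.18, and none of 19 other ependymal genes was, with a median of 0.07. The axonemal list summed to 2295 to 2787 CPM in high knockouts and 2637 to 2872 CPM in low knockouts. In wild types the axonemal sum was at 2865 and 5309 CPM in the high cultures and 3414 to 7173 CPM in the low ones. Wild-type replicate 1 thus had less axonemal mRNA than any other wild type and was level with the knockouts. Of 18 regulators of multiciliation 1, Gmnn, was separated and higher (0.53) and none lower, with a median of -0.22. Over all genes 6.06% were separated and higher and 3.99% lower, so the count lies near the share of all genes. Without wild-type replicate 3, 2 of the regulators were lower, against 5.27% of all genes. The regulators summed to 1601 to 1875 CPM in high and 1934 to 2034 CPM in low knockouts, which do not overlap. In wild types the sums overlapped, at 1849.6 and 2619.5 CPM in the high set and 2269.9 to 3406 CPM in the low set.

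Few genes were 2-fold lower where Pdgfra was high. Kcnh1 (ENSMUSG00000058248, chromosome 1, 192190774 to 192510159), a voltage-gated potassium channel, had the largest difference, -3.49 (SE 0.56). It was at 0.446 to 0.513 CPM in the high knockouts and wild-type replicate 1 and at 1.02 CPM in wild-type replicate 2, against 5.57 to 9.20 CPM in 7 low cultures. Wild-type replicates 4 and 8, however, had 1.25 and 1.21 CPM, so Kcnh1 was low in 7 of the 14 libraries and not only in the high set. Thsd4, a secreted matrix protein, differed by -1.73, Osr1, a zinc-finger factor of mesenchyme, by -1.44, and Gria1, an AMPA receptor subunit, by -1.38. Ccbe1 (-1.33), Tenm1 (-1.13), the protease Tll1 (-1.10), the vasopressin receptor Avpr1a (-1.08), Col1a2 (-1.04) and Gpr165 (-1.01) followed. Osr1 was at 2.77 to 3.60 CPM in high and 10.3 to 13.9 CPM in low knockouts, and at 6.12 and 9.12 CPM in high and 11.9 to 18.0 CPM in low wild types, so its low knockouts lay above its high wild types.

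Wild-type replicate 3, the low library nearest the threshold, lay between the sets. Genes were chosen again without it, and its place was set on a scale from 0, the mean of the other low wild types, to 1, the mean of the high wild types, in log2. For 22 lineage genes its median place was 0.41, for 159 other higher genes 0.225 and for 19 lower genes 0.3. Tnr was at 12.9 CPM there, against 5.58 to 6.63 CPM in the other low wild types, and Cntn1 at 8.65 against 3.74 to 4.66 CPM. With the threshold at 8 CPM, which moved this library to the high set, 69 genes were 2-fold higher and separated and 8 lower. In a principal component analysis the second component (26.4% of the variance) placed the 5 high libraries at 16.5 to 30.4 and wild-type replicate 3 at 17.4, with the other 8 at 3.88 or below.

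The Rfx1 and Rfx3 lines gave libraries that took no part in choosing these genes. Pdgfra ran there from 1.99 to 137 CPM. In the Rfx3 line the highest were knockout replicates 4, 5 and 6 (102, 137 and 46.1 CPM) and wild-type replicate 6 (102 CPM), all above 40 CPM, with knockout replicate 1 just under it at 39.8 CPM. In the Rfx1 line the highest was knockout replicate 2 at 21.4 CPM. Each gene was tested in the 20 libraries for a slope on log2 Pdgfra, with the group (line and genotype) as a term, by edgeR's quasi-likelihood test with Benjamini-Hochberg adjustment. Of 13845 genes, 814 had a positive slope (5.88%) and 543 a negative slope (3.92%) at an adjusted p under 0.05.

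Most genes that were 2-fold higher in the high Rfx2 cultures and could be tested went with Pdgfra in those lines too. Of 161 such genes without Pdgfra, 137 were tested, and 98 (71.5%) had a positive slope past the threshold, against the 5.88% of all genes. None had a negative slope past it, 132 (96.4%) had a slope above 0, and the median slope was 0.35 log2 units per doubling of Pdgfra, against -0.006 over all genes. The 98 genes were 12% of the 814 positive calls. Outside the 3 lineage lists 81 of 118 tested (68.6%) were called. Genes with a mean under 0.5 CPM in the 20 libraries were not tested. Some tested genes passed that filter through few libraries. Bcas1 had a median of 0.241 CPM and a highest level of 18.7 CPM there, and Pcdh15 had 0.263 and 17.7 CPM. The filter thus favours genes that rise with Pdgfra, and these shares may be raised by it. Of the 16 lower genes, 1 had a negative slope past the threshold (6.25%, against 3.92% of all genes) and 9 had a slope below 0.

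**Figure D4:**
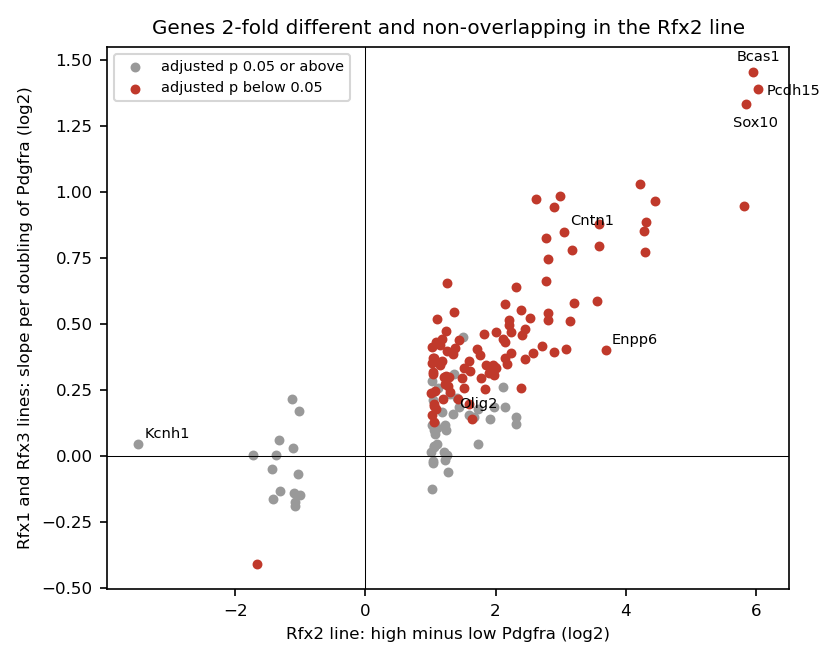
Each point is a gene that was separated and at least 2-fold different in the Rfx2 line, without Pdgfra; the x axis gives its high-minus-low difference there (log2) and the y axis its slope on Pdgfra in the 20 Rfx1- and Rfx3-line libraries (log2 per doubling). Red points passed an adjusted p of 0.05; 132 of the 137 higher genes lie above 0, while Kcnh1 lies near 0.

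Single genes of the lineage had steep slopes. Sox10 was at 8.14, 23.2, 33.7 and 8.37 CPM in Rfx3 knockout replicates 1, 4, 5 and 6 and at 23.0 CPM in wild-type replicate 6, against 0.0706 to 0.837 CPM in the other 7 Rfx3-line libraries. Its slope was 1.34 per doubling (SE 0.10, edgeR adjusted p = 1.26e-07). Pcdh15 had a slope of 1.39 (SE 0.07, edgeR adjusted p = 3.52e-10) and Bcas1 1.46 (SE 0.09, edgeR adjusted p = 9.31e-09). Pcdh15, Cntn1 (0.85), Bcas1, Cldn11 (0.99) and Brinp3 (0.88) had the smallest p of all genes. Brinp3, a secreted neural protein, was also separated in the Rfx2 line, at 1.03 to 2.17 CPM in the high set and 0.0688 to 0.417 CPM in the low set.

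**Figure D5:**
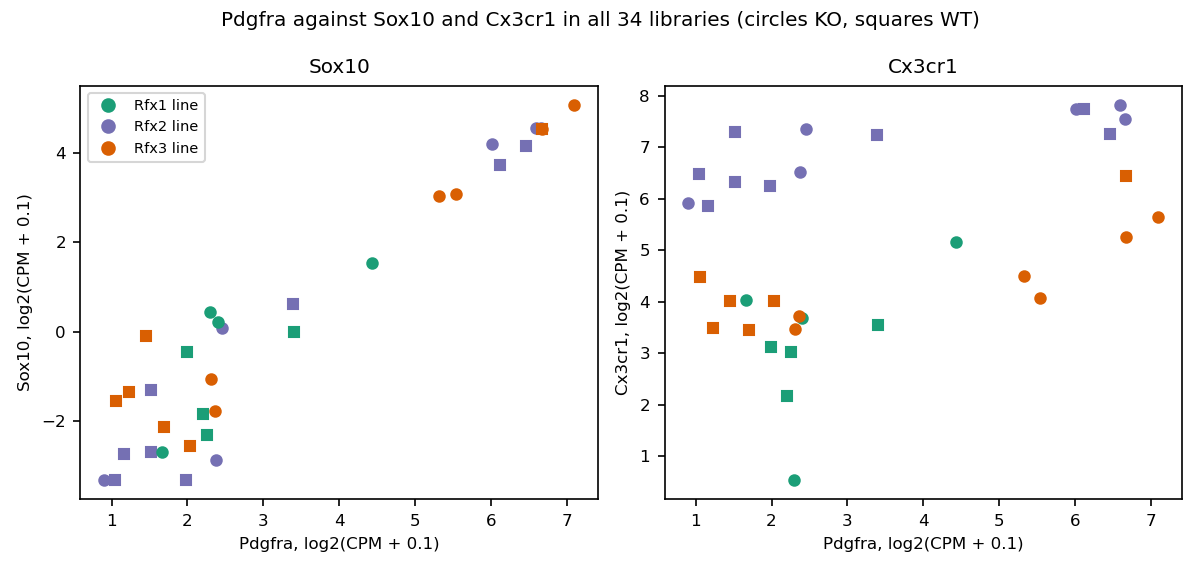
Sox10 and Cx3cr1 against Pdgfra in all 34 libraries, each as log2(CPM + 0.1), coloured by line, with knockouts as circles and wild types as squares. In each line the libraries with Pdgfra above 20 CPM are also the highest for Sox10, and Cx3cr1 is higher in the Rfx2 line as a whole than at the same Pdgfra level in the other lines.

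By list, 13 of 26 precursor genes, 6 of 20 genes of committed cells and 8 of 15 myelin genes had a positive slope past the threshold, against 5.88% of all genes. The limit set by the filter holds for these counts too. In these lists 1 gene, Tcf7l2, had a negative slope past it (-0.08, edgeR adjusted p = 0.0126). Olig2 had a slope of 0.16 (SE 0.05, edgeR adjusted p = 0.0546) and Nkx2-2 of 0.18 (adjusted p = 0.0617), so neither passed. Olig2 was at 20.9 to 94.6 CPM across these libraries, and its slope passed in 4 of 20 fits that left out 1 library. Enpp6 passed (0.40, edgeR adjusted p = 0.00984) but not without Rfx3 wild-type replicate 6 (edgeR adjusted p = 0.159).

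Microglia and mitotic genes were read in the same way. All 18 microglia genes had a positive slope past the threshold in the Rfx1 and Rfx3 lines (median 0.41); in the Rfx2 line 3 of 18 were separated, with a median difference of 0.69. Of the mitotic genes, 11 of 20 were separated in the Rfx2 line; in the other lines 0 of 20 had a positive slope past the threshold by edgeR, 1 a negative one (Cdk1, -0.12, adjusted p = 0.0254), and the median slope was 0.01. For Mki67 the slope was 0.15 (edgeR adjusted p = 0.108). Whether the slopes differ from the Rfx2-line differences was not tested. The summed microglia list reached 1013 CPM in Rfx3 wild-type replicate 6 and 720.0 CPM in Rfx3 knockout replicate 5, against 170.5 to 358 CPM in the other Rfx3 wild types.

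With the summed microglia level as a further term, added after the data were seen, 263 genes had a positive slope past the threshold (1.9%) and 251 a negative one (1.81%). None of the 18 microglia genes was called positive in that fit and 4 were called negative. The term was summed from the list that holds these genes, so this outcome was largely built in. Of the 137 genes, 54 (39.4%) were called, and Sox10 (1.49, edgeR adjusted p = 0.000846), Pcdh15 (1.15), Bcas1 (1.23), Myt1 (0.88), Cntn1 (0.80) and Cldn11 (1.10) were among them. Tnr (0.34, adjusted p = 0.114) and Enpp6 (0.21, adjusted p = 0.387) were not. In the same fit 4 of 20 mitotic genes (Mki67 at 0.32, Cenpf at 0.22, Kif11 at 0.17 and Top2a at 0.12) and 4 of 14 DNA replication genes had a positive slope past the threshold. The slopes rested on few high libraries. Without Rfx3 knockout replicate 5 and wild-type replicate 6 together, 36 of the 137 genes were called. With a term for Y-linked genes 60 were, and with the replicate block 25. Over all genes 106, 148 and 54 positive slopes were called in those fits, in the same order. The Rfx1 line alone, whose Pdgfra range was narrow, gave 0 calls by edgeR of either sign; 31 of 119 genes had a positive slope at an unadjusted p under 0.05 (4.69% of all genes did), and 82 had a slope above 0. The Rfx3 line alone gave 104 of 141 (6.37% of all genes were called positive and 1.63% negative).

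Genotype comes from the labels and could be tested. With the Pdgfra set as a term, 2642 genes were higher in Rfx2 knockouts than in wild types (19.1%) and 2619 lower (18.9%), or 37.9% in all, by edgeR's quasi-likelihood test at an adjusted p under 0.05. Without that term 2157 were higher (15.6%) and 2463 lower (17.8%). The fits shared 4406 calls, all of the same sign, which is 83.7% of the calls with the term and 95.4% of those without; 855 genes were called only with it and 214 only without it. With the replicate number as a block beside the set, 1480 were higher and 1862 lower.

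Most axonemal genes fell in the knockouts when all 14 libraries were fitted. Of 39, 35 were lower with the set as a term and 37 without it, none was higher, and the median log2 change was -0.83. In the low cultures alone 36 of 39 were called lower (16.1% of all genes were), and in the high cultures alone, with 3 knockouts against 2 wild types, 3 of 39 were (4.48% of all genes were), with medians of -0.94 and -0.75. Genes called only with the set as a term included Cldn11 (1.91, edgeR adjusted p = 0.0128), Gria1 (1.53, adjusted p = 0.00374), Acta1 (-1.42, adjusted p = 0.0016), Ret (-1.31, adjusted p = 0.0158) and the protease Prss41 (1.46, adjusted p = 0.0495). Without knockout replicate 5, the culture with high Dcn, Cldn11 was at 0.90 and no longer called (edgeR adjusted p = 0.0886). When each library was left out in turn, Prss41 lost its call in 10 of 14 fits and Ret in 2. Genes called only without the set as a term included Gap43, Glycam1, Igfbp6 and BC049715, whose edgeR adjusted p with the term lay between 0.0522 and 0.0891.

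Lineage genes were read against the 19.1% of all genes that were higher in knockouts and the 18.9% that were lower, with the set in the fit. Of 26 precursor genes 3 were higher and 1 lower in knockouts, among them Xylt1 (0.34) and Lrrc4c (0.52) upward and Chst11 (-0.28) downward. Sox10 differed by 0.46 (SE 0.66, edgeR adjusted p = 0.623). Pdgfra, which made the sets, was in the fit and is among the 26, and its knockout effect is not read here. Of 20 genes of committed cells, 5 were higher and 2 lower, and of 17 myelin genes 3 were higher and 5 lower. The committed and myelin counts lie near the shares of all genes. Gpr17 rose by 0.70 (SE 0.19, edgeR adjusted p = 0.0105), and Cnp (-0.52), Mal (-0.81) and Tspan2 (-0.60) fell.

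Within the 5 high cultures some later genes of the lineage were higher in knockouts, and most did not pass the test. Mbp, whose levels are given above, was higher in all 3 knockouts than in both wild types, a log2 difference of 1.24 (edgeR adjusted p = 0.0148). Mag differed by 1.32, Cldn11 by 1.45, Gjc3 by 0.85 and Ugt8a by 0.69, all at an adjusted p under 0.05 in edgeR. In all, 6 of 19 myelin genes and 4 of 19 genes of committed cells were called higher, against 3.08% of all genes, and 1 of each list was called lower. The median difference was 0.08 for the myelin list and 0.23 for the committed list. Sox10 (0.50) was not called there (edgeR adjusted p = 0.117). In the low cultures none of 13 myelin genes was called higher and 3 were lower (13.8% and 16.1% of all genes were).

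A test of the difference itself, the interaction of genotype with the set, called 0 of 13867 genes by edgeR, with a lowest adjusted p of 0.0942 and 1448 genes at an unadjusted p under 0.05. DESeq2 called 179, the fit with the replicate block 4, and edgeR with the threshold at 8 CPM 7. In the main edgeR fit, then, no gene's knockout effect was shown to differ between high and low cultures. The count depended on the tool and, within edgeR, on the threshold, the block and the libraries used. Leaving out each library gave 0 to 23 calls. The mitotic genes are the case in point: 6 of 20 were higher in knockouts in the high cultures, against 3.08% of all genes. In the low cultures 11 of 20 were lower in knockouts, against 16.1% of all genes. Like every other gene, none of the 20 passed the interaction test in the main edgeR fit. Ccna2 differed by 0.43 between knockouts and wild types among high cultures (edgeR adjusted p = 0.0164), and Plk1 by -0.83 among low cultures (edgeR adjusted p = 0.00851).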

How the data were processed

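Members, sets and gene lists were chosen with earlier results of these data known. The deposited unit is the unnormalized count of each Ensembl gene, made by the authors with CASAVA 1.8.2, STAR 2.4 and featureCounts 1.4.6 on GRCm38, per the submitters' processing notes; the annotation release and strand setting are unknown here. There were 21647 identifiers, of which 21583 had a symbol in GENCODE M21. Genes with a mean CPM of at least 0.5 over the fitted libraries were kept. Counts were fitted in edgeR 4.0.16 (R 4.3.3) with TMM scaling and the two-sided quasi-likelihood test, with DESeq2 1.42.0 as an alternative; the scripts were tested on simulated data. Calls used a Benjamini-Hochberg adjusted p under 0.05. Pdgfra enters slopes as log2(CPM + 1). Same-numbered knockouts and wild types of the Rfx2 line deviated together in all 6 pairs (r from 0.177 to 0.644). These values include the sets, whose high libraries carry the lowest numbers. With the set removed r ran from -0.21 to 0.35. Whether the numbers pair the libraries is thus not known, and the replicate block was an alternative fit only. No replicate pair agreed within counting noise (lowest chi-squared per degree of freedom 4.01, 85 pairs). Named genes were the 3 markers, the 15 highest and 10 lowest separated genes (mean log2 CPM at least 1, no predicted genes), up to 5 members per list by size of difference (mean log2 CPM at least 0), the 5 largest knockout effects called only with or only without the set, the 5 smallest p of the other lines and the 5 closest to Pdgfra by r; other names were chosen after their values were seen. Of 448 listed symbols Lhfpl3, Ak9, Xist and Tsix were not found.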

Additional observations from a re-analysis of the deposited data

Results flagged for a closer look

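In 38 groups of 4 to 10 libraries checked by Dixon's criterion, 15 held a library far from the others, where chance would give about 1 in 20 groups. Of these, 10 concerned wild-type replicate 3 of the Rfx2 line, which stood above the other 5 low wild types. Its levels were 10.4 CPM for Pdgfra, 1.44 for Sox10, 0.577 for Pcdh15, 1.76 for Bcas1, 1.03 for Dscam and 1.41 for Enpp6. Ppp1r16b and Cldn11 were at 0.993 CPM there, Cntn1 at 8.65 and Tnr at 12.9 CPM. These genes move together, so they are not separate observations. Marco stood apart in wild-type replicate 8, at 0.617 CPM.

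Outside the Rfx2 line, Rfx3 wild-type replicate 6 stood apart from the other 5 wild types for Pdgfra (102 CPM) and Sox10 (23.0 CPM). Rfx1 knockout replicate 2 stood apart for Pdgfra at 21.4 CPM, and Rfx1 wild-type replicate 3 at 10.5 CPM.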

How the results depend on the processing

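The set of 2-fold separated genes was 841 higher and 553 lower with no minimum fold, 64 and 1 at a minimum of 4-fold, and 69 and 8 with the Pdgfra threshold at 8 CPM; leaving out each library gave 150 to 199 and 12 to 34. Knockout calls in all 14 libraries with the set as a term ran from 1988 to 2810 higher and 2214 to 2901 lower when each library was left out, and high cultures only gave 427 and 622. With the replicate number as a block, a pairing that the labels do not give, 1480 genes were higher in knockouts and the interaction had 4 calls. The interaction test gave 7 calls at the 8 CPM threshold and 179 with DESeq2. It gave 0 to 23 without each library (23 without Rfx2 knockout replicate 5). The exact p for genotype against set ran from 0.266 to 1.

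Positive slopes in the Rfx1 and Rfx3 lines numbered 106 without the 2 libraries farthest from the median, 148 with the Y-linked term, 54 with the replicate block (pairing within line, where the numbers did not deviate together), 263 with the microglia term and 0 in the Rfx1 line alone. Negative slopes numbered 33, 6, 0, 251 and 0 under those settings, 310 without a low-count filter, 974 with DESeq2 and 226 in the Rfx3 line alone. Among genes 2-fold higher in the Rfx2 line the positive calls were 36, 60, 25, 54 and 0 in the same order. Among the 2-fold lower genes the negative calls were 0 in each of those 5 settings and 2 with DESeq2. Leaving out each library gave 560 to 1176 positive and 75 to 1601 negative slopes (75 without Rfx3 knockout replicate 5, 1601 without Rfx3 wild-type replicate 6), with 74 to 103 and 1 to 2 among the 2-fold genes. The Enpp6 slope reversed in the Rfx1 line alone (-0.10, edgeR adjusted p = 0.96). The cause of these changes was not tested. Depth of 27.4 M or more put low-set levels of Sox10, Pcdh15 and Gjc3 at or near the limit of a count of 0, so their ratios are less certain than their separation.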

Other observations

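Some single genes outside the lists were also separated. They were picked after their values were seen, so they stand for no group. Saa3, an acute-phase protein, averaged 4.5 CPM in high and 0.236 CPM in low knockouts, and 3.93 and 0.2 CPM in high and low wild types, a log2 difference of 4.23 (SE 0.32). The chemokine Ccl5 differed by 3.11, the formyl peptide receptor Fpr1 by 3.14, Acod1, the enzyme that makes itaconate, by 2.65 and the chemokine Ccl2 by 1.59. For Saa3 the levels in low knockout replicate 4 and wild-type replicates 3 and 4, whose microglia sums were high, were 0.378, 0.224 and 0.0304 CPM. The high set had 3.28 to 5.41 CPM. The part of microglia in the levels of these genes was not tested. Of these genes Ccl2 alone was tested in the Rfx1 and Rfx3 lines, with a slope of 0.36 (SE 0.10, edgeR adjusted p = 0.0324).

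Nxph1, a neurexin ligand, was at 3.30 to 4.37 CPM in the high set and at 0.0506 to 0.577 CPM in the low set. Grik3, a kainate receptor subunit, was at 6.90 to 12.8 CPM in the high set and 0.773 to 2.23 CPM in the low set, and Lrrtm3, a synaptic adhesion protein, differed by 2.80 on the log2 scale. In the Rfx1 and Rfx3 lines all 3 had positive slopes on Pdgfra (0.97, 0.66 and 0.75, edgeR adjusted p of 2.9e-05 or below). Vgf, a secreted neuropeptide precursor, was separated in the Rfx2 line (2.11, SE 0.43) but had a slope of 0.26 (SE 0.18, edgeR adjusted p = 0.326) in the others.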
